A study of Mus musculus with 10 samples.

Results

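The vascular endothelial growth factor (VEGF) system of bEnd.3 cells was followed through 9 genes, which were picked by name from the 27024 named rows of the expression table. They were 4 genes of ligands (*Vegfa*, *Vegfb*, *Vegfc* and *Pgf*), 3 genes of receptor tyrosine kinases (*Kdr*, *Flt1* and *Flt4*) and 2 genes of neuropilins (*Nrp1* and *Nrp2*). The study asked how brain endothelial cells respond when the mucin-type glycoproteins on their surface are cleaved. bEnd.3 is a single immortalized mouse brain endothelial line, labelled wild type (WT), and all samples grew in high-glucose medium with 10% fetal bovine serum. The 5 control samples (replicates 1, 2, 3, 4 and 5) were given saline, and the 5 treated samples (replicates 1, 2, 3, 5 and 6) were given 5 nM StcE, a protease of bacterial origin that is specific for mucin-type glycoproteins. Both groups were collected after 16 h, poly-adenylated RNA was sequenced in strand-specific libraries, and expression was given as FPKM (fragments per kilobase of gene, scaled for depth).

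VEGF-A binds the receptors VEGFR2 (encoded by *Kdr*) and VEGFR1 (*Flt1*) on endothelial cells. VEGFR2 carries most of the signal for growth, migration and permeability, whereas VEGFR1 binds VEGF-A tightly, signals weakly and also exists as a soluble form, so that it can act as a decoy. VEGF-B and placental growth factor (*Pgf*) bind VEGFR1, VEGF-C binds VEGFR3 (*Flt4*) and VEGFR2, and neuropilins are co-receptors that VEGFs share with class 3 semaphorins. Neurons, astrocytes and other neighbours supply much of the VEGF-A that brain endothelium receives, and cells of a pure culture lack that source.

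The samples held between 22370054 and 33893704 fragments, as recovered from the deposited values, and no pair of replicates agreed within sampling noise. Markers of endothelial cells fitted the label, with *Cdh5* at 509 ± 25.9 and *Cldn5* at 310 FPKM in saline samples, although *Vwf* stood at only 1.42 FPKM. All 5 astrocyte markers had a mean of at most 0.050 FPKM, and the 6 neuronal and oligodendrocyte markers in the table reached at most 0.138 FPKM. The highest mural, fibroblast and myeloid markers were *Acta2* at 3.14, *Pdgfra* at 1.24 and *Cd68* at 20.1 FPKM. *Lyve1*, a lymphatic endothelial marker, stood at 11.8 FPKM, while *Prox1*, the factor that sets lymphatic identity, was listed at 0 in 9 of 10 samples. The sources do not say that replicates came from separate cultures, so the p-values measure the spread between these samples, which may be technical.

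Of the 9 genes, 2 rose with StcE (*Vegfa* and *Pgf*, both ligands), 1 fell (*Flt1*, a receptor), 5 did not pass the test and 1 (*Vegfc*) was below the expression minimum for the test. Among the 8 genes tested the share past the threshold was 37.5%, beside 11.9% of all 11062 genes tested (5.52% higher and 6.41% lower). The threshold was a Benjamini-Hochberg adjusted p under 0.05 from limma over all 11062 genes, on log2(FPKM + 1) and with a mean of at least 1 FPKM over the 10 samples. The saline and StcE samples did not overlap for the same 3 genes, beside 10.7% of all genes tested. In a bulk sample, fewer cells that express a gene and less RNA per cell cannot be told apart.

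**Figure D1:**
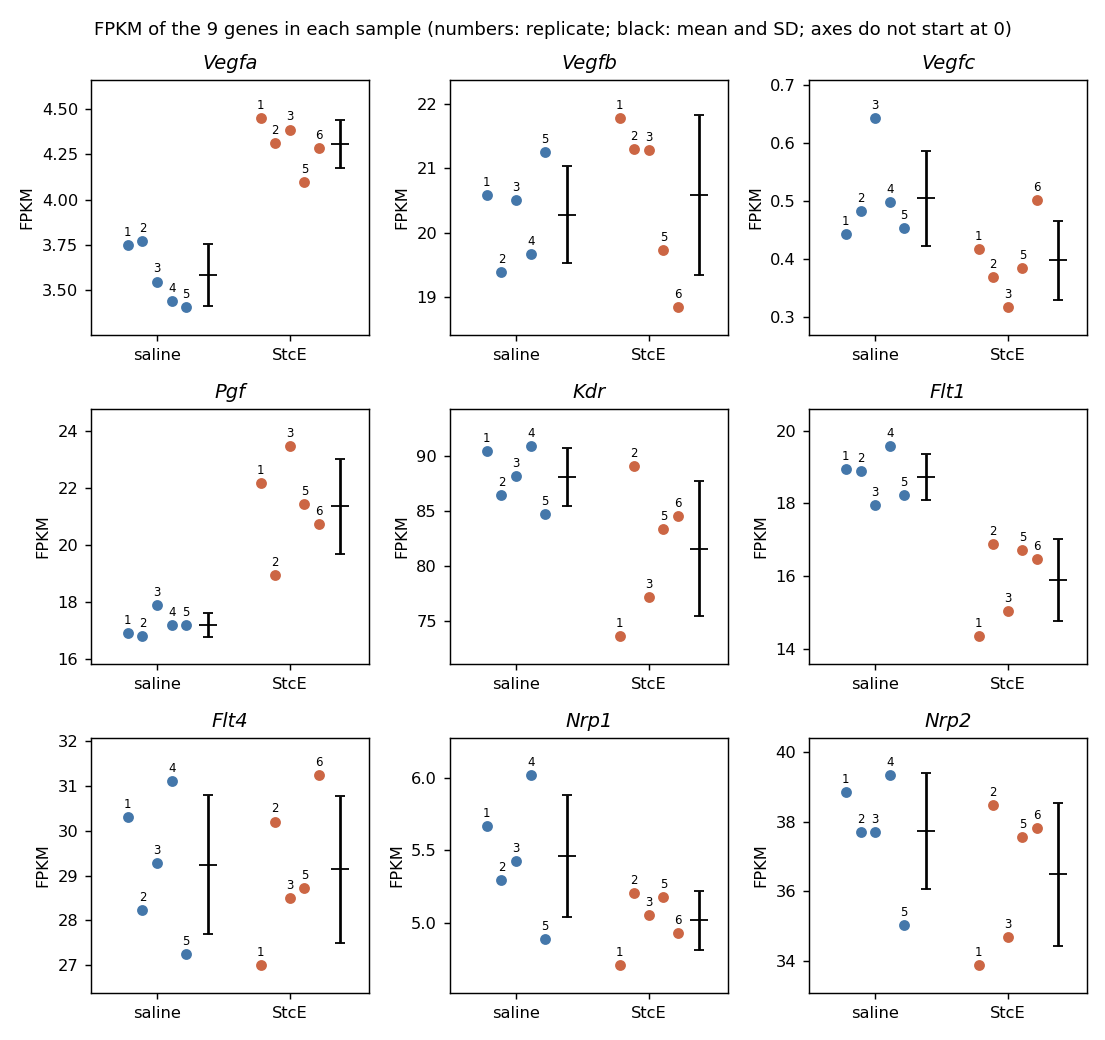
FPKM of each of the 9 genes in the 5 saline samples (blue) and the 5 StcE samples (orange), 1 panel a gene, with the replicate number above each point and the mean and SD in black; the vertical axes do not start at 0. *Vegfa* and *Pgf* lie higher in every StcE sample than in any saline sample, *Flt1* lies lower, and the groups overlap for the other 6 genes.

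The promoters of the genes that the results turn on are shown for reference, as the 250 bases before the RefSeq transcription start on GRCm38.p6, read 5′ to 3′ on the strand of the gene. *Flt1*, *Vegfa* and *Pgf* are the genes that changed, and *Kdr* is the main signalling receptor. Capitals mark the core of ETS factor motifs (GGAA) and the core of hypoxia response elements (ACGTG or GCGTG), each on either strand.
Flt1 (chr5:147726012-147726261, minus strand): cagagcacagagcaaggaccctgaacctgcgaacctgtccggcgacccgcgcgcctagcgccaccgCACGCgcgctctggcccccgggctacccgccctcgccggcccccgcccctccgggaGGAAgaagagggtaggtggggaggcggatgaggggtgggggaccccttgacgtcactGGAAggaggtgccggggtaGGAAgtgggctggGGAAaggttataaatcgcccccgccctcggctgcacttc
Kdr (chr5:75978456-75978705, minus strand): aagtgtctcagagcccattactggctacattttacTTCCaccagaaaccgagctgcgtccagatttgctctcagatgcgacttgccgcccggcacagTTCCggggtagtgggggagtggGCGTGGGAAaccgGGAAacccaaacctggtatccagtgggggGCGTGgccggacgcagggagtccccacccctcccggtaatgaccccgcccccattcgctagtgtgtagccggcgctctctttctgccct
Vegfa (chr17:46032378-46032627, minus strand): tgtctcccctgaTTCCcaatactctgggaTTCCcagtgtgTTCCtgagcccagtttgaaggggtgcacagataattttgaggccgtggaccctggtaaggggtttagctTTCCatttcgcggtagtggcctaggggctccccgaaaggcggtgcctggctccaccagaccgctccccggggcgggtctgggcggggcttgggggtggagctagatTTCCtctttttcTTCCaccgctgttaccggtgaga
Pgf (chr12:85177314-85177563, minus strand): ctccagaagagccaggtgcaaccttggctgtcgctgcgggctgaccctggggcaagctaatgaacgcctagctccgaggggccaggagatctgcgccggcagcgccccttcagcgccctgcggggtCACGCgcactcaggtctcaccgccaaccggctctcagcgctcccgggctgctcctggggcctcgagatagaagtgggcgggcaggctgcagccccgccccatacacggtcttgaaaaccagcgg
All 9 genes matched the RefSeq table by symbol, with 11 windows, since *Vegfa* and *Pgf* have 2 starts each. The ETS core occurred 4 times in the windows of *Flt1* and *Kdr*, 6 times in the window shown for *Vegfa* and 0 times in that of *Pgf*, and 93.4% of all 32851 promoter windows of this length held it. The hypoxia core occurred 1 time for *Flt1*, 2 times for *Kdr*, 0 times in the window shown for *Vegfa* and 1 time in that shown for *Pgf*, and 38.6% of all windows held it. The window at the other start of *Vegfa* (chr17:46025164-46025413) held 2 ETS and 2 hypoxia cores. It lies inside the annotated gene, so these matches fall within the transcribed span. Both windows of *Pgf* also lie inside its annotated gene, and the one not shown held 0 of either core. No match of one motif overlapped a match of the other. A match of these letters is not a binding site, and the windows leave out more distant elements.

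*Vegfa* (chromosome 17, 46016993 to 46032369, minus strand, GRCm38) encodes the principal ligand of VEGFR2. It stood at 3.75, 3.77, 3.55, 3.44 and 3.41 FPKM in saline samples 1 to 5 and at 4.45, 4.31, 4.39, 4.10 and 4.28 FPKM in StcE samples 1, 2, 3, 5 and 6. Every StcE sample lay above every saline sample, and neither group held a sample far from the rest. The mean rose by 20.2%, from 3.58 ± 0.171 to 4.31 ± 0.135 FPKM (SD, n = 5 each; log2 fold change 0.21 ± 0.0350, SE; 95% interval 0.14 to 0.29; limma adjusted p = 0.00288). On this scale the added 1 FPKM shrinks the change of a gene this low, and the log2 ratio of the means was 0.27. An exact two-sided permutation test over all arrangements of the samples into 5 and 5 gave p = 0.00794, the smallest value this design allows. This p is not adjusted, and every gene whose groups do not overlap gets it (10.7% of all genes tested had such groups). The values rested on 338 to 652 fragments a sample, with a counting error of 3.92% to 5.44%. The annotation holds 13 transcripts of the gene, and the values do not separate its splice forms.

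*Pgf* (chromosome 12, 85166635 to 85177790, minus strand), which encodes a ligand of VEGFR1 alone among the VEGF receptor kinases, showed the largest log2 fold change of the 8 genes tested. Saline samples 1 to 5 held 16.9, 16.8, 17.9, 17.2 and 17.2 FPKM, and StcE samples 1, 2, 3, 5 and 6 held 22.2, 19.0, 23.4, 21.4 and 20.7 FPKM. The saline samples lay close together, the StcE samples spread more widely with replicate 2 nearest to them, and the groups did not overlap. The mean rose by 24.0%, from 17.2 ± 0.418 to 21.3 ± 1.67 FPKM (log2 fold change 0.29 ± 0.0462, SE; 95% interval 0.19 to 0.39; limma adjusted p = 0.00229; exact permutation p = 0.00794). Ordered by log2 fold change, *Pgf* was number 202 and *Vegfa* number 403 from the top of the 11062 genes.

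*Vegfb* (chromosome 19, 6982473 to 6987651, minus strand), a ligand of VEGFR1 with little effect on vessel growth in most tissues, did not pass the test. Its saline samples held 20.6, 19.4, 20.5, 19.7 and 21.3 FPKM and its StcE samples 21.8, 21.3, 21.3, 19.7 and 18.8 FPKM, so that the highest and the lowest value were both in the StcE group. The log2 fold change was 0.020, with a 95% interval of -0.070 to 0.11 and a limma adjusted p of 0.798. The ratio of *Vegfa* to *Vegfb* FPKM was 0.177 ± 0.0126 in saline and 0.210 ± 0.0101 in StcE samples (SD), without overlap.

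*Vegfc* (chromosome 8, 54077606 to 54187096, plus strand), the ligand of VEGFR3 that drives lymphatic growth, was barely expressed. Saline samples 1 to 5 held 0.443, 0.483, 0.644, 0.498 and 0.454 FPKM, and StcE samples 1, 2, 3, 5 and 6 held 0.417, 0.369, 0.318, 0.385 and 0.502 FPKM. 4 of the 5 StcE samples lay below all saline samples, and the fifth lay above 4 of them. With no minimum, over 27024 genes of which 2.96% were past the threshold, *Vegfc* had a log2 fold change of -0.11 and a limma adjusted p of 0.339, beside an exact permutation p of 0.0476. Only 24 to 42 fragments a sample lay behind these values, with a counting error of 15.4% to 20.4%. *Vegfd*, the other ligand of VEGFR3, stood at 0.244 FPKM in saline and 0.288 FPKM in StcE samples and was not tested.

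*Flt1* (chromosome 5, 147561604 to 147726011, minus strand), the receptor of VEGF-A, VEGF-B and placental growth factor, was the 1 gene of the 9 that fell. It stood at 18.9, 18.9, 18.0, 19.6 and 18.2 FPKM in saline samples 1 to 5 and at 14.4, 16.9, 15.0, 16.7 and 16.5 FPKM in StcE samples 1, 2, 3, 5 and 6. Each StcE sample lay below each saline sample, with StcE replicates 1 and 3 the lowest. The mean fell from 18.7 ± 0.636 to 15.9 ± 1.13 FPKM, a change of -15.1% (log2 fold change -0.23 ± 0.0443, SE; 95% interval -0.32 to -0.13; limma adjusted p = 0.00775; exact permutation p = 0.00794). The gene was number 10774 of 11062 in the order of log2 fold changes. The 6 annotated transcripts of *Flt1* were counted together, so the soluble and the membrane-bound form cannot be told apart here.

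*Kdr* (chromosome 5, 75932827 to 75978458, minus strand) encodes VEGFR2 and was the most highly expressed of the 9 genes. Saline samples 1 to 5 held 90.5, 86.4, 88.2, 90.9 and 84.7 FPKM, and StcE samples 1, 2, 3, 5 and 6 held 73.7, 89.1, 77.2, 83.4 and 84.6 FPKM. 4 of the 5 StcE samples lay below all saline samples, and StcE replicate 2 lay within the saline range. The means were 88.1 ± 2.63 and 81.6 ± 6.14 FPKM, and the difference was not past the threshold (limma adjusted p = 0.138; log2 fold change -0.11 ± 0.0461, SE; 95% interval -0.21 to -0.012; exact permutation p = 0.0556). Without StcE replicate 2 the log2 fold change was -0.14 and the limma adjusted p 0.0493, so the call on *Kdr* turned on this 1 sample.

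The remaining receptor gene and both neuropilin genes did not pass the test. *Flt4* (chromosome 11, 49609263 to 49652739, plus strand), which encodes the VEGF-C receptor VEGFR3, ranged over 27.2 to 31.1 FPKM in saline and 27.0 to 31.2 FPKM in StcE samples. Its log2 fold change was -0.0051, with a 95% interval of -0.10 to 0.091 (limma adjusted p = 0.961). *Nrp2* (chromosome 1, 62703285 to 62818695, plus strand), the co-receptor of VEGF-C and of semaphorin 3F, ranged over 35.0 to 39.3 and 33.9 to 38.5 FPKM (log2 fold change -0.048; 95% interval -0.14 to 0.043; limma adjusted p = 0.50). *Nrp1* (chromosome 8, 128358604 to 128503363, plus strand), the co-receptor of VEGF-A and of semaphorin 3A, was the lowest of the receptor and neuropilin genes. Its saline samples held 5.67, 5.30, 5.43, 6.02 and 4.89 FPKM and its StcE samples 4.72, 5.21, 5.06, 5.18 and 4.93 FPKM, with saline replicate 5 inside the StcE range. The log2 fold change of *Nrp1* was -0.10 (95% interval -0.20 to -4.4e-04; limma adjusted p = 0.179).

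**Figure D2:**
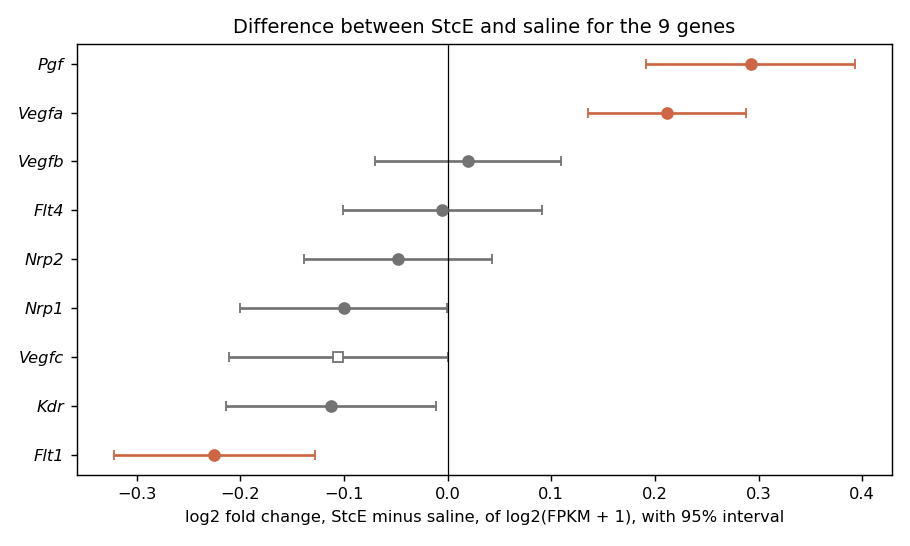
Log2 fold change of the 9 genes (StcE minus saline, on log2(FPKM + 1); points) with 95% intervals (bars) from limma; orange marks genes past the threshold, grey those that were not, and the open square *Vegfc*, read from the fit without an expression minimum. The intervals of *Pgf* and *Vegfa* lie above 0, that of *Flt1* lies below it, and those of *Kdr* and *Nrp1* end just below 0 although their adjusted p-values missed the threshold.

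FPKM is given per length of gene, so the 9 genes can be ordered by it. The lengths that gave whole fragments join all annotated exons, with 13504 bases for *Flt1* and 1605 for *Vegfb*. Their longest single transcripts have 6895 and 1281 bases. The order and the ratios between genes therefore depend on the annotation as well as on expression. In saline samples the order from the highest level was *Kdr*, *Nrp2*, *Flt4*, *Vegfb*, *Flt1*, *Pgf*, *Nrp1*, *Vegfa* and *Vegfc*. Of the neighbours in this order, the sample ranges overlapped for *Vegfb* and *Flt1* alone. In StcE samples *Pgf* stood between *Flt4* and *Vegfb*, with a range that overlapped that of *Vegfb*, and *Pgf* was the higher in 4 of 5 StcE samples. The ratio of *Flt1* to *Kdr* FPKM was 0.212 ± 0.00591 in saline and 0.195 ± 0.00388 in StcE samples (SD, n = 5 each), and every StcE sample had the lower ratio. The ratio of *Flt4* to *Kdr* was 0.332 and 0.358, that of *Nrp1* to *Nrp2* 0.145 and 0.138, and that of *Pgf* to *Vegfa* 4.81 and 4.96, with overlapping groups for each of these 3 ratios. These ratios are descriptions and were not tested.

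Within each group, the receptor and neuropilin genes moved together from sample to sample. StcE replicate 1 was the lowest of its group for 5 of 5 genes, at a median of 92.7% of the group mean, and StcE replicate 2 was the highest for 4 of 5, at 105.5%. In the saline group, replicate 4 was the highest for 5 of 5 genes (104.5%) and replicate 5 the lowest for 4 of 5 (93.2%). Over 12 endothelial markers the medians were 97.2% for StcE replicate 1 and 99.6% for StcE replicate 2. They were 102.0% for saline replicate 4 and 95.6% for saline replicate 5. StcE replicate 1 was the lowest of its group for 5 of the 12 markers and the highest for 1, and saline replicate 5 was the lowest for 7. *Ptprb* and *Cd93* were also lowest in StcE replicate 1, whereas *Emcn* was not. Low values in these samples were thus not particular to the VEGF receptors. Without StcE replicate 1, *Flt1* was still past the threshold, and the same held without any other single sample (limma adjusted p between 0.00698 and 0.0238).

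**Figure D3:**
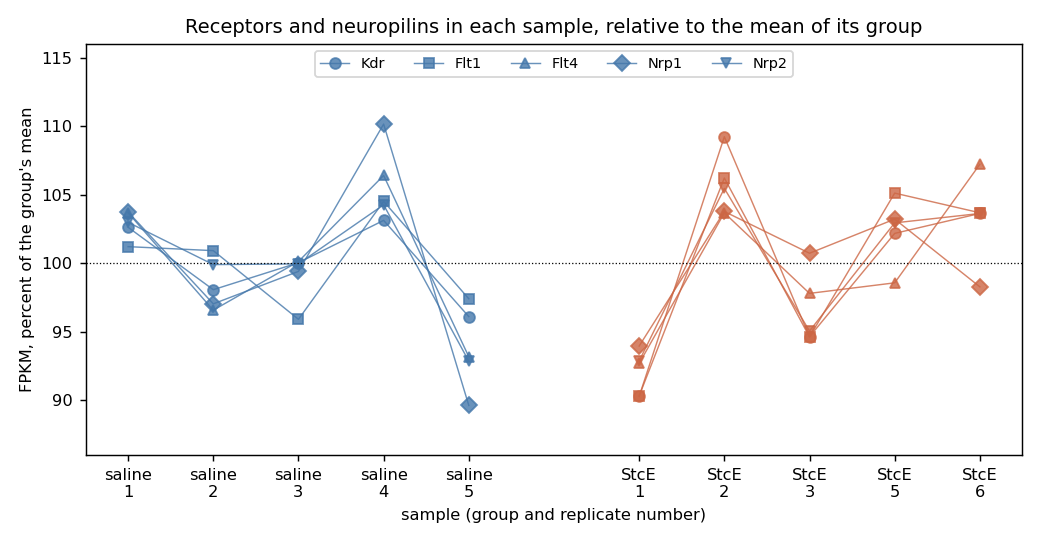
FPKM of *Kdr*, *Flt1*, *Flt4*, *Nrp1* and *Nrp2* in each sample, as a percentage of the mean of its group (blue, saline; orange, StcE; symbols mark the genes and lines join the values of a gene). The 5 genes are lowest in StcE replicate 1 and highest in saline replicate 4 of their groups, so a sample that is low for one receptor tends to be low for the others.

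Endothelial markers were counted beside the receptors, since *Flt1* is itself typical of endothelium. Of the 12 markers, 5 were lower and 1 was higher with StcE, with a median log2 fold change of -0.095, and their summed level was 2048 to 2198 FPKM in saline and 1996 to 2073 FPKM in StcE samples. With any 1 sample left out, 2 to 3 markers were lower and 0 to 1 higher. The part of this shift in the lower level of *Flt1* was not tested.

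The listed modulators of VEGF receptors, at the cell surface, inside the cell or in the matrix, had more lower than higher calls. *Pecam1* (lower), *Cdh5*, *Emcn* and *Robo4* were also among the 12 endothelial markers above. Those markers leaned the same way (5 lower, 1 higher, median log2 fold change -0.095). Of the 24 modulators tested, 7 fell and 1 rose, with a median log2 fold change of -0.072 beside -6.6e-04 over all genes tested. The share past the threshold was 33.3%, beside 11.9% of all genes tested (6.41% lower and 5.52% higher). *Efnb2*, which encodes ephrin-B2, a ligand needed for the uptake of VEGFR2 and VEGFR3, fell from 24.6 ± 1.06 to 16.9 ± 0.575 FPKM (log2 fold change -0.52; limma adjusted p = 1.8e-06). *Cav1*, the main coat protein of caveolae, fell from 652 ± 11.9 to 541 ± 9.74 FPKM (log2 fold change -0.27; limma adjusted p = 1.4e-05). The groups did not overlap for either gene. *Clec14a* and *Cd93*, C-type lectin-like receptors of endothelium, fell by 0.29 and 0.17 on the log2 scale (limma adjusted p = 0.0172 and 0.0214), and *Ephb4*, a receptor of ephrin-B2, fell by 0.14 (limma adjusted p = 0.0219). The calls on *Cd93* and *Ephb4* were lost without saline replicate 1 (limma adjusted p = 0.0545 and 0.0563) or StcE replicate 3 (0.0572 and 0.0560), and 3 modulators were lower in each of those fits. With no expression minimum 3 were lower as well, and the calls on *Clec14a* (limma adjusted p = 0.0621), *Cd93* (0.0714) and *Ephb4* (0.0604) were lost.

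3 further modulators, named whatever they showed, were not past the threshold. *Cdh5*, which encodes VE-cadherin, stood at 509 ± 25.9 and 463 ± 22.3 FPKM in saline and StcE samples without overlap (log2 fold change -0.14; limma adjusted p = 0.0515). It was past the threshold with scaling by total fragments (limma adjusted p = 0.042), with voom (0.0181) and with a robust eBayes (0.0438). *Ptprb*, which encodes the phosphatase VE-PTP, stood at 48.3 ± 3.28 and 42.9 ± 5.25 FPKM (log2 fold change -0.17; limma adjusted p = 0.164), and was past the threshold without StcE replicate 6 (limma adjusted p = 0.0386). *Emcn*, which encodes endomucin, a mucin-type glycoprotein involved in VEGFR2 uptake, differed by -0.0055 on the log2 scale, from 105.1 ± 3.51 to 104.7 ± 2.94 FPKM (limma adjusted p = 0.926).

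Of the 11 genes of semaphorins, plexins and other neuropilin partners tested, 1 was higher and 1 lower, with a median log2 fold change of 0.015. These calls made up 18.2% of the genes tested in the list, beside 11.9% of all genes tested. *Sema3g*, which encodes an endothelial ligand of *Nrp2*, fell from 3.27 ± 0.602 to 2.07 ± 0.183 FPKM (log2 fold change -0.47; limma adjusted p = 0.00626). *Sema3c*, a ligand of both neuropilins, rose from 5.85 ± 0.159 to 6.90 ± 0.259 FPKM (log2 fold change 0.21; limma adjusted p = 0.00164). Neither gene's groups overlapped. *Plxnd1*, which encodes a semaphorin receptor of endothelium, stood at 89.9 ± 6.98 and 81.2 ± 5.68 FPKM (limma adjusted p = 0.131). Without saline replicate 5, 2 genes of this list were lower, and with array weights 3 were higher.

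Of 46 genes tested of the signalling path below the receptors, 1 was higher and 5 were lower, a share of 13.0% that was close to the 11.9% over all genes tested, with a median log2 fold change of -0.016. *Plcg1*, which encodes the phospholipase that VEGFR2 recruits first, fell from 28.4 ± 0.517 to 25.9 ± 0.865 FPKM (log2 fold change -0.13; limma adjusted p = 0.00919). *Ppp3ca*, a catalytic subunit of calcineurin, and *Nfatc1*, a transcription factor that calcineurin activates, fell by 0.15 and 0.21 on the log2 scale (limma adjusted p = 0.00424 and 0.00826). *Mapk3*, which encodes ERK1, fell from 140 ± 4.29 to 122 ± 2.35 FPKM (log2 fold change -0.20; limma adjusted p = 4.8e-04). *Map2k1*, the kinase above ERK1, rose by 0.098 on the log2 scale (limma adjusted p = 0.0313), but passed in only 4 of the 10 fits that left out 1 sample (limma adjusted p between 0.0268 and 0.0747). It was also lost with no expression minimum (0.0557), and the fits without 1 sample that lost it were those without saline replicate 2, 3 or 5 and without StcE replicate 1, 3 or 5. *Nos3*, which encodes the endothelial nitric oxide synthase, stood at 287 ± 13.5 and 308 ± 6.0 FPKM (log2 fold change 0.10; limma adjusted p = 0.0628). It was past the threshold without saline replicate 4 (limma adjusted p = 0.0226), with scaling by total fragments (0.028), with voom (0.0311), with array weights (0.0329) and over 8 samples (0.0372).

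The list of genes that VEGF-A is known to raise in endothelial cells held the most calls, with 11 higher and 3 lower of 25 tested and a median log2 fold change of 0.096. This was 56.0% of the list, beside 11.9% of all genes tested (5.52% higher and 6.41% lower). With no expression minimum 9 genes of the list were higher and 1 lower. The list was chosen with earlier results of these data known, so the share is a description and was not tested. Many of these genes also respond to serum, cytokines and other stimuli. *Ptgs2*, which encodes the cyclooxygenase COX-2, rose from 58.6 ± 6.61 to 79.9 ± 7.25 FPKM (log2 fold change 0.44; limma adjusted p = 0.00417). *Dusp5*, a phosphatase of ERK in the nucleus, rose from 20.6 ± 1.37 to 26.9 ± 1.15 FPKM (log2 fold change 0.37; limma adjusted p = 3.8e-04). *Plaur*, the urokinase receptor, rose from 93.0 ± 2.72 to 115.9 ± 2.04 FPKM (log2 fold change 0.32; limma adjusted p = 9.8e-06). The groups did not overlap for these 3 genes, whereas they overlapped for *Egr1*, an immediate early transcription factor that rose by 0.29 on the log2 scale (limma adjusted p = 0.00834). *Dll4*, the Notch ligand of tip cells, moved the other way and fell from 38.4 ± 3.73 to 31.2 ± 2.32 FPKM (log2 fold change -0.29; limma adjusted p = 0.0165, and 0.0602 with no expression minimum). *Esm1*, another tip cell gene, stood at 118 ± 10.5 and 134 ± 5.06 FPKM and missed the threshold, with a log2 fold change of 0.18 and a limma adjusted p of 0.0503 (0.0247 without saline replicate 3, and 0.0173 to 0.0498 with 2 other scalings, voom and a robust eBayes). With any 1 sample left out, 9 to 11 genes of the list were higher and 2 to 3 lower.

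Hypoxia-inducible factors (HIFs) act on *Vegfa*, *Flt1* and other genes of the family, and the genes of both main alpha subunits were expressed in these cells. *Epas1*, which encodes HIF-2α, held 66.8, 60.9, 64.8, 59.7 and 56.6 FPKM in saline samples 1 to 5 and 42.1, 50.8, 45.6, 49.4 and 51.2 FPKM in StcE samples 1, 2, 3, 5 and 6. All StcE samples lay below all saline samples, and the mean changed by -22.6% (log2 fold change -0.36 ± 0.0584, SE; limma adjusted p = 0.00246). *Hif1a* stood at 39.7 ± 0.850 and 41.3 ± 1.41 FPKM and did not pass (log2 fold change 0.056; limma adjusted p = 0.20). The difference between the 2 subunits was not tested.

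HIF regulators and hypoxia-inducible genes as a list moved in both directions, with 4 higher and 3 lower of 26 tested and a median log2 fold change of 0.044. This was a share of 26.9%, beside 11.9% of all genes tested. *Ndrg1*, a stress-responsive gene, and *Vldlr*, a lipoprotein receptor, fell by 0.28 and 0.25 on the log2 scale (limma adjusted p = 0.0178 and 0.00786). The call on *Ndrg1* was lost with no expression minimum (limma adjusted p = 0.0618) and over 8 samples (0.0539). *Egln3*, a prolyl hydroxylase that marks HIF for decay, rose by 0.14 (limma adjusted p = 0.0191). *Bnip3*, a mitophagy gene, rose by 0.24 with overlapping groups (limma adjusted p = 0.0377), but with 1 sample left out it passed in only 3 of 10 fits (limma adjusted p between 0.0142 and 0.0836), those without saline replicate 2 and StcE replicates 2 and 3. The call on *Bnip3* was also lost with a minimum of 0.1 FPKM (limma adjusted p = 0.0591), with no minimum (0.115) and over 8 samples (0.0973). The number of higher genes was 2 with no expression minimum, and without saline replicate 1, 3 or 4 or StcE replicate 1 or 5.

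Among genes that process VEGF-C or mark lymphatic development, 2 rose and 3 fell of 11 tested, with a median log2 fold change of -0.033. Called genes were 45.5% of those tested in the list, beside 11.9% of all genes tested. *Ccbe1*, which encodes a secreted protein that helps to activate VEGF-C, rose from 2.60 ± 0.219 to 3.77 ± 0.183 FPKM without overlap, by 45.1% (log2 fold change 0.41; limma adjusted p = 2.9e-04). *Furin*, a protease that cleaves the VEGF-C precursor, fell from 21.2 ± 1.13 to 18.1 ± 1.00 FPKM (log2 fold change -0.22; limma adjusted p = 0.00881). *Ackr3*, an atypical chemokine receptor that takes up adrenomedullin, rose by 0.23, while *Ramp2*, a subunit of the adrenomedullin receptor, and *Sox18*, a transcription factor of lymphatic fate, fell by 0.10 and 0.20 on the log2 scale (limma adjusted p = 0.00167, 0.0172 and 0.0135). The call on *Sox18* was lost with no expression minimum (limma adjusted p = 0.0509), and that on *Ramp2* over 8 samples (0.0542). *Prox1* was at or near 0, and *Vegfc* itself was the lowest of the 9 genes in every sample.

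**Figure D4:**
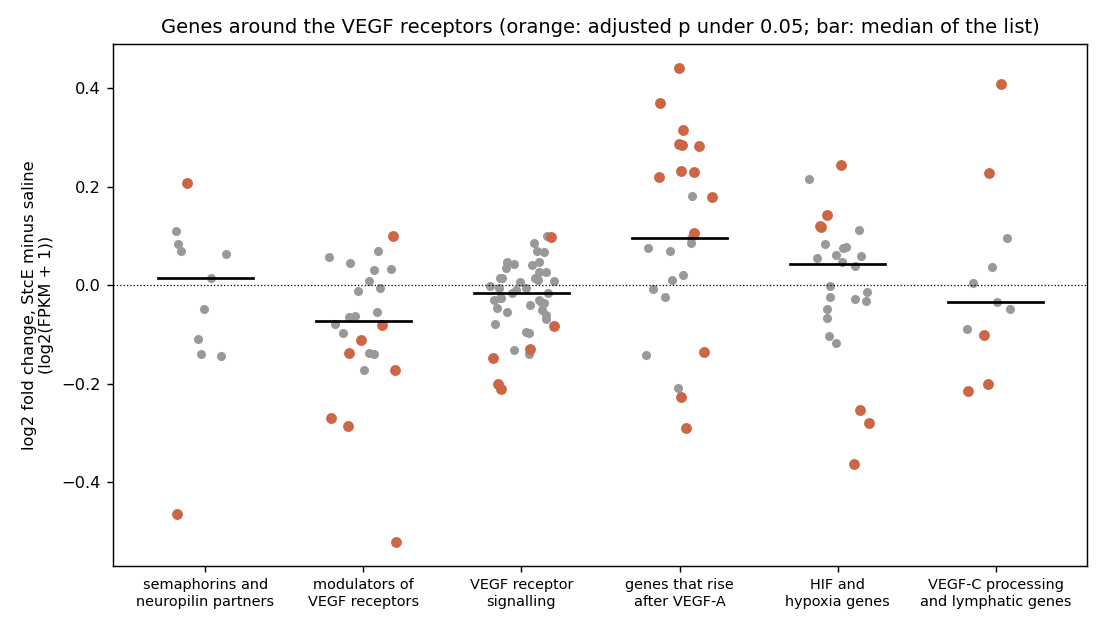
Log2 fold change (StcE minus saline, on log2(FPKM + 1)) of each tested gene of 6 lists around the VEGF receptors; orange points are past the threshold, grey points are not, bars are list medians, the dotted line is the median of all genes tested, and horizontal scatter carries no meaning. Orange points lie mostly above 0 for genes that VEGF-A raises (11 of 14) and mostly below 0 for modulators of the receptors (7 of 8). The lists were chosen with earlier results of these data known.

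The genes whose pattern over the 10 samples lay nearest to that of each changed gene were found by the distance between mean-centred log2(FPKM + 1) values. For *Flt1* they were *Atrnl1* (distance 0.0896), which stood at 24.0 and 20.5 FPKM in saline and StcE samples, and *Tek* (distance 0.0998), the angiopoietin receptor, at 17.9 and 15.1 FPKM. For *Vegfa* they were *Tnfaip2* (distance 0.11; 60.8 and 69.6 FPKM) and *Zfp959* (distance 0.112; 1.98 and 2.36 FPKM). For *Pgf* they were *4930503L19Rik* (distance 0.138; 12.9 and 15.6 FPKM) and *Dync1i1* (distance 0.142; 2.59 and 3.28 FPKM). The median distance over all tested genes was 0.468 from *Flt1*, 0.425 from *Vegfa* and 0.564 from *Pgf*. The named genes were picked for the smallest distances, so they lie below these medians by selection. The distance includes the difference between saline and StcE samples, so their shared direction also follows from the selection.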

How the data were processed

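RNA-seq values of 5 saline and 5 StcE samples of bEnd.3 cells were compared, grouped by their labels. The authors trimmed and aligned paired reads to GRCm38 (mm10) and deposited a table of FPKM per gene and sample. The submitters' processing notes name HISAT2 2.0.5, featureCounts 1.5.0-p3 and DESeq2 1.32.0, and the annotation release is not given in the sources used here. Of 49898 rows, 27024 had a gene name and 22874 were empty. Multiplied by GENCODE vM21 exon lengths, 96.8% of the values above 0 were whole fragments (within 0.05 of a fragment, or a relative tolerance of 2e-05), which gave 22370054 to 33893704 fragments a sample. Counting errors cover the counting of fragments only, whereas the 95% intervals come from limma and rest on the spread between samples. A count of 3 fragments on a gene of 1 kb was worth 0.0857 to 0.131 FPKM.

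Genes with a mean of at least 1 FPKM (11062) were log2-transformed after adding 1 FPKM and compared by moderated linear models (limma 3.58.1, R 4.3.3, trended eBayes) with no term but the condition, and p-values were adjusted by Benjamini-Hochberg. Single genes were also compared by exact two-sided permutation over all arrangements of 5 and 5 samples, and these p-values were not adjusted. The procedure was tested on simulated data. Transcripts of the 9 genes were searched with BLAST 2.17.0, and none had a copy of at least 95% identity over 150 bases in another gene. Promoter sequences are from RefSeq on GRCm38.p6.

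The 9 genes and the lists were chosen with earlier results of these data known, so no p-value was adjusted over them alone. Named genes were the 9, up to 5 genes past the threshold with the largest change in each of 6 lists, 11 genes picked by name (*Hif1a*, *Epas1*, *Plxnd1*, *Ptprb*, *Cdh5*, *Emcn*, *Nos3*, *Plcg1*, *Dll4*, *Esm1* and *Prox1*), the 2 genes nearest to each changed gene, and cell type markers. *Vegfd* falls outside this rule and was named after its values were seen. Alternatives were a pseudocount of 0.1, a minimum of 0.1 FPKM, no minimum, other scalings, voom on recovered fragments, other eBayes settings, array weights, a block for the replicate number, and each sample left out in turn.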

Additional observations from a re-analysis of the deposited data

Results flagged for a closer look

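*Vegfc* in saline replicate 3 stood at 0.644 FPKM, apart from the other 4 saline samples, which lay between 0.443 and 0.498 FPKM. The gap to the next sample was 0.724 of the range of the group. Of the 18 groups of 5 examined (9 genes, 2 conditions) this was the 1 that stood out, and chance sets apart about 1 group in 20.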

How the results depend on the processing

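Of 21 alternatives, *Pgf* was past the threshold in 21 (limma adjusted p between 3.1e-04 and 0.0218), and *Flt1* and *Vegfa* in 20. Same-numbered samples did not deviate together (correlations between -0.0966 and 0.0538). The sources do not say whether equal numbers mark samples handled together, and these correlations cannot exclude it. In a fit with a replicate block, which takes 8 samples, *Flt1* (log2 fold change -0.22, limma adjusted p = 0.0679) and *Vegfa* (0.20, 0.0531) missed the threshold, leaving 1 of the 9 genes past it (1 higher, 0 lower). Genes past it in all were 349 (187 higher, 162 lower) with the block, 885 (452 lower) over those 8 samples without it, 801 (392 higher, 409 lower) with no minimum, and 1320 (611 higher, 709 lower) as reported. Of the 27 named genes of the 6 lists past the threshold, 9 were still past it with the block (*Dll4*, *Epas1*, *Ndrg1* and *Vldlr* among the 18 lost, with limma adjusted p = 0.0774, 0.0505, 0.0585 and 0.0527), 23 over the 8 samples without it and 19 with no minimum. The others lost with the block were *Bnip3*, *Cd93*, *Egln3*, *Egr1*, *Ephb4*, *Furin*, *Map2k1*, *Nfatc1*, *Plcg1*, *Ppp3ca*, *Ramp2*, *Sema3c*, *Sema3g* and *Sox18*. With the block, the genes that VEGF-A raises had 6 higher and 0 lower calls, the hypoxia list 0 and 0, the modulators 0 and 3, the signalling path 0 and 1, the neuropilin partners 0 and 0, and the VEGF-C and lymphatic list 2 and 0. The 12 endothelial markers had 0 higher and 0 lower calls with the block. *Flt4* changed sign with scaling by total fragments (0.0034) but had an adjusted p of at least 0.694 throughout.

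With each sample left out in turn, log2 fold changes were -0.25 to -0.19 for *Flt1*, 0.20 to 0.23 for *Vegfa*, 0.26 to 0.33 for *Pgf*, -0.14 to -0.077 for *Kdr*, -0.030 to 0.021 for *Flt4*, -0.13 to -0.070 for *Nrp1*, -0.073 to -0.022 for *Nrp2* and -4.0e-04 to 0.050 for *Vegfb*. *Kdr* was past the threshold only without StcE replicate 2. Between 3 and 4 of the 9 genes passed (2 higher, 1 to 2 lower), and 793 to 1255 genes in all (384 to 588 higher, 409 to 667 lower). Fewest passed without StcE replicate 3 (793) and saline replicate 1 (838). Of genes past the threshold, 53.7% were lower as reported, 48.8% with scaling by total fragments and 49.5% by the upper quartile. The few fragments of *Vegfc* limit what can be seen of it, and gene-level values cannot show splice forms or protein.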
